A study of Drosophila melanogaster with 9 samples.

Results

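The genes described here are 8 fly genes that let cells take up microbes, modified molecules and dead cells: the class C scavenger receptors Sr-CI, Sr-CII, Sr-CIII and Sr-CIV, the phagocytic receptors eater and crq, the engulfment receptor drpr (Draper), and Ced-12, an adaptor that works inside the engulfing cell. They were chosen as the probe sets that the array's annotation assigns to these symbols. Each gene had exactly 1 probe set, and together they make up 8 of the 11982 genes that could be named.

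Scavenger receptors bind many unlike ligands, among them bacterial surfaces and altered lipoproteins, and the class C receptors are known from insects, where Sr-CI was described on the macrophage-like blood cells called plasmatocytes. Eater, a receptor with epidermal growth factor-like repeats, binds bacteria on plasmatocytes, and Croquemort, the product of crq, is a relative of mammalian CD36 known for the uptake of apoptotic cells. Draper is the fly counterpart of CED-1 of Caenorhabditis elegans, and glia, blood cells and epidermis use it to clear dying cells and pruned or injured axons and dendrites. Ced-12, the counterpart of mammalian ELMO, acts with the exchange factor Myoblast city to activate Rac, which drives the actin protrusions that close around the target.

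RNA was hybridised to 9 single-colour Affymetrix Drosophila expression arrays, 3 biological replicates in each of 3 groups. Every larva carried GAL4[21-7] and UAS-mCD8:GFP: the driver is labelled as pan-da, for the dendritic arborization (da) sensory neurons that tile the larval body wall, and the reporter marks their membranes. Ab ME larvae had 1 further transgene, UAS-abL, for ectopic expression of the transcription factor Abrupt. Kn ME larvae had UAS-knL:HA in its place, for the transcription factor Knot, and Control larvae had the driver and the reporter alone. Each sample pooled 80 body walls of wandering larvae of instar 3 raised at 25 °C, from which cells positive for the marker were collected. The comparisons ask what changes in the sorted cells when Abrupt or Knot is expressed under this driver.

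Values are log2 units as the authors deposited them, a difference of 1 being a 2-fold difference. Replicates correlated least in Control (r = 0.93 to 0.944 across probe sets) and more closely in Ab ME (0.984 to 0.985) and Kn ME (0.974 to 0.977). The median spread of a probe set (SD over 3 arrays) was 0.175 in Ab ME, 0.209 in Kn ME and 0.317 in Control, while the test uses 1 spread for all groups. The sorted cells were labelled as da neurons, and the 7 measured neuronal markers averaged 3.22 to 3.64 log2 units on the Ab ME arrays, 3.74 to 4.03 on the Kn ME arrays and 5.52 to 5.84 on the Control arrays. Of 4 measured da neuron markers ct rose and ppk26 fell in each misexpression group. A second ct probe set of similar mean value (5.17, against 5.19) also rose in Ab ME (2.00, limma adjusted p = 0.00993). In Kn ME it differed by 1.28 and did not pass (adjusted p = 0.0915). A further ct set, with a low mean of 1.64, fell in both (-2.02, adjusted p = 0.00358, in Ab ME and -1.59, adjusted p = 0.021, in Kn ME). The direction of ct therefore differed between its probe sets. The markers ppk, ppk26 and kn lay below the median of all values, 1.54, on every Ab ME array, and ppk and kn did so on every Kn ME array. The main kn probe set read 0.53 to 0.66 in Ab ME, 0.53 to 0.68 in Kn ME and 1.0 to 3.75 in Control, so it does not show the Knot transgene, and no probe set was named for ab; neither transgene therefore checks the labels. The 26 markers of blood cells (hemocytes) averaged 7.87 to 8.003 in Ab ME, 7.51 to 7.66 in Kn ME and 5.79 to 6.76 in Control. The hemocyte averages were thus highest and the neuronal averages lowest in Ab ME. In a bulk sample, more cells of a type and more RNA per cell cannot be told apart.

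With ectopic Abrupt, 7 of the 8 scavenger and engulfment genes rose and 0 fell, the exception being Sr-CII (limma, adjusted p under 0.05). Among all 18769 probe sets 14.0% passed, 8.72% as higher and 5.25% as lower. The median difference was 1.43 log2 units over the 8 genes, against -0.06 over all probe sets. With ectopic Knot, 4 of the 8 rose and 0 fell: Sr-CI, Sr-CIV, drpr and Ced-12. Among all probe sets 5.29% passed in that comparison, 3.34% as higher and 1.95% as lower, and the medians were 1.32 over the 8 genes and -0.03 over all. Both comparisons use the same 3 Control arrays. Of the calls over all probe sets, 62.4% were higher in Ab ME in the values as deposited, 49.6% after quantile normalization and 76.2% after centring on array medians. For Kn ME these shares were 63.1%, 48.1% and 72.4%, while the called receptors kept their direction under both. Under quantile normalization 5 of the 8 genes passed in Ab ME, with the calls of eater (adjusted p = 0.0916) and crq (0.13) lost. The 7 risen genes had no overlap between the Ab ME and Control arrays, as had 34.9% of all probe sets in either direction and 17.2% as higher. For Kn ME 6 of the 8 genes had none, against 21.8% of all probe sets in either direction and 11.0% as higher. The rises of Sr-CI and Sr-CIV in these data were known when the genes were chosen, so the counts over the 8 genes are a description.

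**Figure D1:**
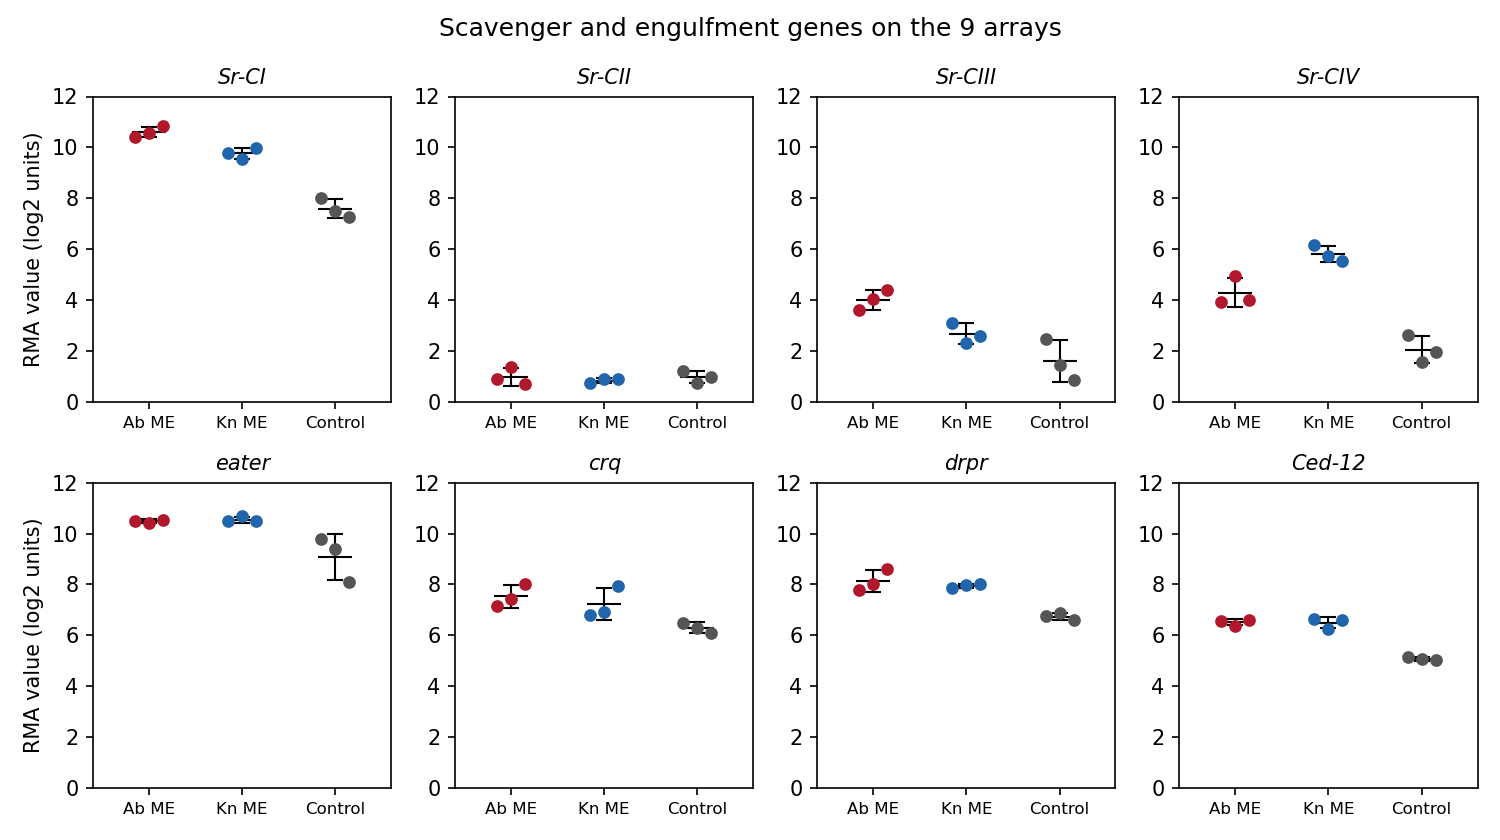
RMA values (log2 units, linear axis from 0 to 12) of the 8 genes on the 9 arrays. Points are single arrays, the wide bar is the mean of 3 arrays and the whiskers are 1 SD. Sr-CII stayed near 1 in every group, and Sr-CIV was highest on the Kn ME arrays. Sr-CI, Sr-CIV, eater, crq, drpr and Ced-12 were higher on every Ab ME and Kn ME array than on any Control array.

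By their array values the class C receptors showed 3 unlike patterns, though 0 of the 4 passed the test between Kn ME and Ab ME. Sr-CI had 10.41, 10.57 and 10.83 log2 units on the Ab ME arrays, 9.78, 9.56 and 9.97 on the Kn ME arrays, and 8.02, 7.49 and 7.27 on the Control arrays. All 3 groups were separate, with Ab ME highest and Control lowest. The Ab ME rise was 8.08-fold (log2 difference 3.02, SE 0.22, limma adjusted p = 0.000205). The Kn ME rise was 4.52-fold (log2 difference 2.18, SE 0.22, adjusted p = 0.00266). Both calls held in all 17 alternative analyses, with adjusted p up to 0.0029 for Ab ME and 0.021 for Kn ME.

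Sr-CIII, a neighbour of Sr-CI on chromosome arm 2L with 0 protein-coding genes between them, was read at lower values. It had 3.61, 4.04 and 4.39 log2 units in Ab ME, 3.11, 2.32 and 2.59 in Kn ME, and 2.48, 1.43 and 0.84 in Control. The Ab ME arrays lay above all others, while the Kn ME arrays overlapped with the highest Control array. Sr-CIII rose in Ab ME (log2 difference 2.43, SE 0.41, adjusted p = 0.00664). The Kn ME difference of 1.09 (SE 0.41) did not pass (adjusted p = 0.186). Without Control replicate 1, the highest Control array, it was 1.54 and passed (adjusted p = 0.0285). As 2 of the Control values lay under 1.54, a range in which background was not measured, the size of these differences is uncertain.

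Sr-CIV was highest in Kn ME. It had 3.90, 4.94 and 4.002 log2 units in Ab ME, 6.17, 5.71 and 5.53 in Kn ME, and 2.62, 1.58 and 1.95 in Control, with no overlap between any groups. The Kn ME rise was 3.75 log2 units, or 13.5-fold (SE 0.35, adjusted p = 0.00213), and the Ab ME rise was 2.23, or 4.70-fold (SE 0.35, adjusted p = 0.00499). Both calls held in all 17 alternatives. The lowest Control value lies close to 1.54, so these sizes are uncertain too.

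Sr-CII, on arm 2R, gave 0.89, 1.35 and 0.69 log2 units in Ab ME, 0.72, 0.88 and 0.87 in Kn ME, and 1.21, 0.73 and 0.97 in Control. Every value was below the median of all values, and the 3 groups overlapped. The difference was 0.00 in Ab ME (95% interval -0.46 to 0.46) and -0.15 in Kn ME (-0.61 to 0.31). At such values a level could not be told from background, and the interval bounds only what this probe set read.

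Among the phagocytic receptors, eater had similar values in both misexpression groups. Its values were 10.51, 10.42 and 10.55 log2 units in Ab ME, 10.48, 10.68 and 10.49 in Kn ME, and 9.78, 9.38 and 8.08 in Control. The Ab ME and Kn ME arrays all lay above the Control arrays, whose SD of 0.89 was many times that of Ab ME (0.06) and Kn ME (0.11). The rise of 1.41 in Ab ME passed (SE 0.37, adjusted p = 0.0401), and the difference of 1.46 in Kn ME did not (SE 0.37, adjusted p = 0.0618). The Ab ME call was lost without Ab ME replicates 1, 2 or 3 (adjusted p = 0.11, 0.1 and 0.116), without Kn ME replicates 1, 2 or 3 (0.0628, 0.0617 and 0.0628) and without Control replicate 2 (0.0537). Without Control replicate 3, the lowest array, the difference was 0.91 and passed. In Kn ME the difference passed without Control replicate 1 (1.81, adjusted p = 0.0185) or Control replicate 3 (0.97, adjusted p = 0.0203).

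The CD36 relative crq had 7.15, 7.42 and 8.03 log2 units in Ab ME, 6.80, 6.94 and 7.95 in Kn ME, and 6.50, 6.30 and 6.08 in Control. All Ab ME and Kn ME arrays lay above the Control arrays, and replicate 3 was the highest array in both misexpression groups. The Ab ME rise of 1.24 (SE 0.34, adjusted p = 0.0447) was close to the threshold, and the Kn ME difference of 0.93 (SE 0.34, adjusted p = 0.167) did not pass in any of the 17 alternatives. The Ab ME call was lost without Ab ME replicates 1, 2 or 3 (adjusted p = 0.0637, 0.103 and 0.144), Kn ME replicates 1 or 2 (0.0503 and 0.0608) or Control replicates 1, 2 or 3 (0.0535, 0.0887 and 0.0989). This probe set carries the suffix that Affymetrix gives to sets able to match more than 1 transcript, so another transcript may contribute to its signal. Among the list genes named below, the sets of Dscam1, ced-6, Crk, CtsL1, pes, emp, nrv2, Gli and ogre carry it too.

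The engulfment receptor gene drpr had 7.77, 8.03 and 8.62 log2 units in Ab ME, 7.86, 7.97 and 8.02 in Kn ME, and 6.76, 6.88 and 6.59 in Control. Neither misexpression group overlapped with Control, and the Kn ME values fell within the Ab ME range. The rise was 2.64-fold in Ab ME (log2 difference 1.40, SE 0.22, adjusted p = 0.00456). In Kn ME it was 2.32-fold (log2 difference 1.21, SE 0.22, adjusted p = 0.0188). The Ab ME call held in all 17 alternatives. The Kn ME call was lost without Kn ME replicates 1, 2 or 3 (adjusted p = 0.0565, 0.0708 and 0.061), while the difference stayed between 1.18 and 1.26.

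Ced-12, which relays engulfment signals to Rac, had a narrow spread in Control (SD 0.07). It had 6.56, 6.38 and 6.60 log2 units in Ab ME, 6.64, 6.26 and 6.61 in Kn ME, and 5.15, 5.05 and 5.01 in Control. Ab ME and Kn ME arrays overlapped and lay above every Control array. The rises were alike in size, 2.72-fold in Ab ME (log2 difference 1.44, SE 0.15, adjusted p = 0.000755) and 2.70-fold in Kn ME (log2 difference 1.43, SE 0.15, adjusted p = 0.00266). Both calls held in all 17 alternatives.

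**Figure D2:**
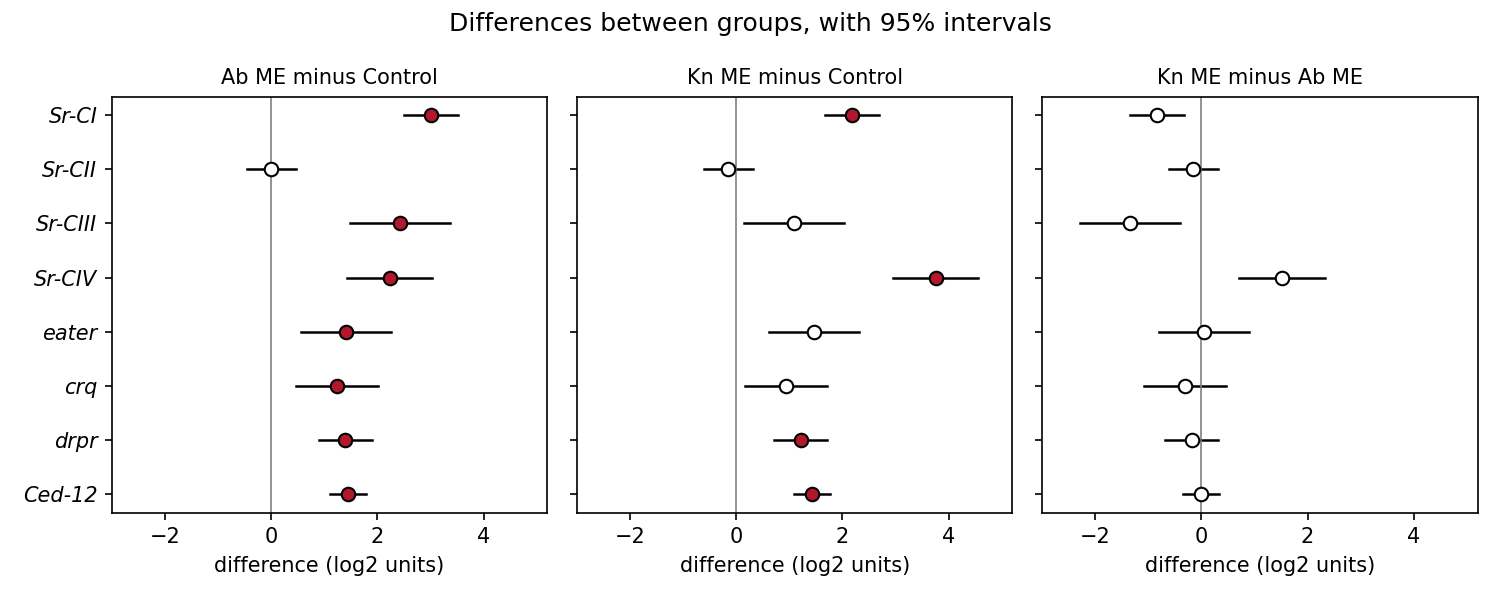
Log2 differences of the 8 genes for Ab ME minus Control, Kn ME minus Control and Kn ME minus Ab ME. Points are model estimates from 3 arrays a group, lines are 95% intervals and filled points passed the limma test at an adjusted p under 0.05. In the panel of Kn ME minus Ab ME, the intervals of Sr-CI, Sr-CIII and Sr-CIV lie away from 0, but 0 of the 8 genes passed.

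Set directly against each other, Kn ME and Ab ME differed by the limma test in 0 of the 8 genes, against 0.517% of all probe sets, 0.266% as higher and 0.250% as lower. At an unadjusted p under 0.05 it was 3 of the 8 genes, against 8.75% of all probe sets, and those 3 were all class C receptors. Sr-CIV was 1.52 log2 units higher in Kn ME (95% interval 0.71 to 2.33, adjusted p = 0.146), with no overlap between the arrays. Sr-CI was lower in Kn ME by 0.84 (difference -0.84, interval -1.35 to -0.33, adjusted p = 0.215) and Sr-CIII by 1.34 (-1.34, interval -2.28 to -0.40, adjusted p = 0.309), also without overlap. Arrays of these groups did not overlap in 19.5% of all probe sets, 9.63% as higher and 9.85% as lower in Kn ME. For eater (0.05, interval -0.80 to 0.90), crq (-0.30, -1.08 to 0.47), drpr (-0.19, -0.68 to 0.31) and Ced-12 (-0.01, -0.35 to 0.33) the arrays overlapped. The intervals of drpr and Ced-12 leave room for a difference of up to 0.68 and 0.35 log2 units.

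Many markers of hemocytes were higher alongside these genes. Of 26 hemocyte markers, 18 rose and 0 fell in Ab ME (median 1.69 log2 units), and 11 rose and 0 fell in Kn ME (median 1.28). By cell type, 15 of 19 plasmatocyte and pan-hemocyte markers rose in Ab ME and 10 in Kn ME, as did 3 of 4 crystal cell markers in Ab ME and 1 in Kn ME, while 0 of 3 lamellocyte markers passed in either group (medians -0.16 and -0.20). The largest differences among the 26 were of crystal cell genes. Their Runx factor lz rose by 4.60 in Ab ME (adjusted p = 0.000157) and 3.78 in Kn ME (adjusted p = 0.0013). The prophenoloxidase genes PPO1 and PPO2 rose by 4.96 and 5.30 in Ab ME (adjusted p = 0.0295 and 0.0273). In Kn ME they differed by 4.33 and 4.095 and did not pass (adjusted p = 0.082 and 0.108). Their Control values ran from 1.53 to 7.34 and from 1.72 to 7.14, so these sizes are uncertain. The crystal cell markers averaged 6.75 to 6.97 in Ab ME, 5.81 to 6.41 in Kn ME and 1.79 to 5.13 in Control, where replicate 1 was the highest. The Kn ME count was 18 without Control replicate 1 and 6, 6 and 7 without Kn ME replicates 1, 2 and 3. The plasmatocyte gene Hml, for hemolectin, had log2 differences of 2.87 in Ab ME (adjusted p = 0.00242) and 2.14 in Kn ME (adjusted p = 0.0187). The GATA factor srp rose by 2.53 (adjusted p = 0.000892) and 2.06 (adjusted p = 0.0063). Of this list, gcm, gcm2 and ItgaPS4 lay below 1.54 on all 9 arrays. The part of these cells in the differences of the receptors was not tested.

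Against the 19 plasmatocyte and pan-hemocyte markers, the receptors and Ced-12 took different places. The Sr-CI difference was above that of 18 of the 19 markers in both comparisons; only Ppn was higher. The 19 include gcm and gcm2, which lay below 1.54 on all 9 arrays. Sr-CIII and Sr-CIV are not ranked, since the sizes of their differences are uncertain. The differences of eater, drpr and Ced-12 lay amid the markers, above 7, 6 and 7 of them in Ab ME and above 12, 7 and 11 in Kn ME, and that of crq was above 4 in each. These ranks have no test and set differences, not levels, side by side.

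Control arrays differed among themselves in both the receptors and the hemocyte markers. Control replicate 1 had the highest hemocyte marker average (6.76, against 6.14 and 5.79 on the other Control arrays). It was also the highest Control array for 7 of the 8 genes, the exception being drpr, and for 18 of the 26 hemocyte markers, against 31.7% of all probe sets. Control replicate 3, the lowest in hemocyte markers, was the lowest Control array for 6 of the 8 genes, against 32.7% of all probe sets. The 8 genes averaged 5.31, 4.86 and 4.60 log2 units on the Control arrays. The part of this spread in the differences was not tested. Without Control replicate 1, 6 of the 8 genes passed in each comparison with Control. With all 9 arrays it was 7 in Ab ME and 4 in Kn ME. Calls over all probe sets rose without this array from 2622 to 3249 in Ab ME and from 992 to 1609 in Kn ME. The gain in Kn ME was therefore not limited to these genes.

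**Figure D3:**
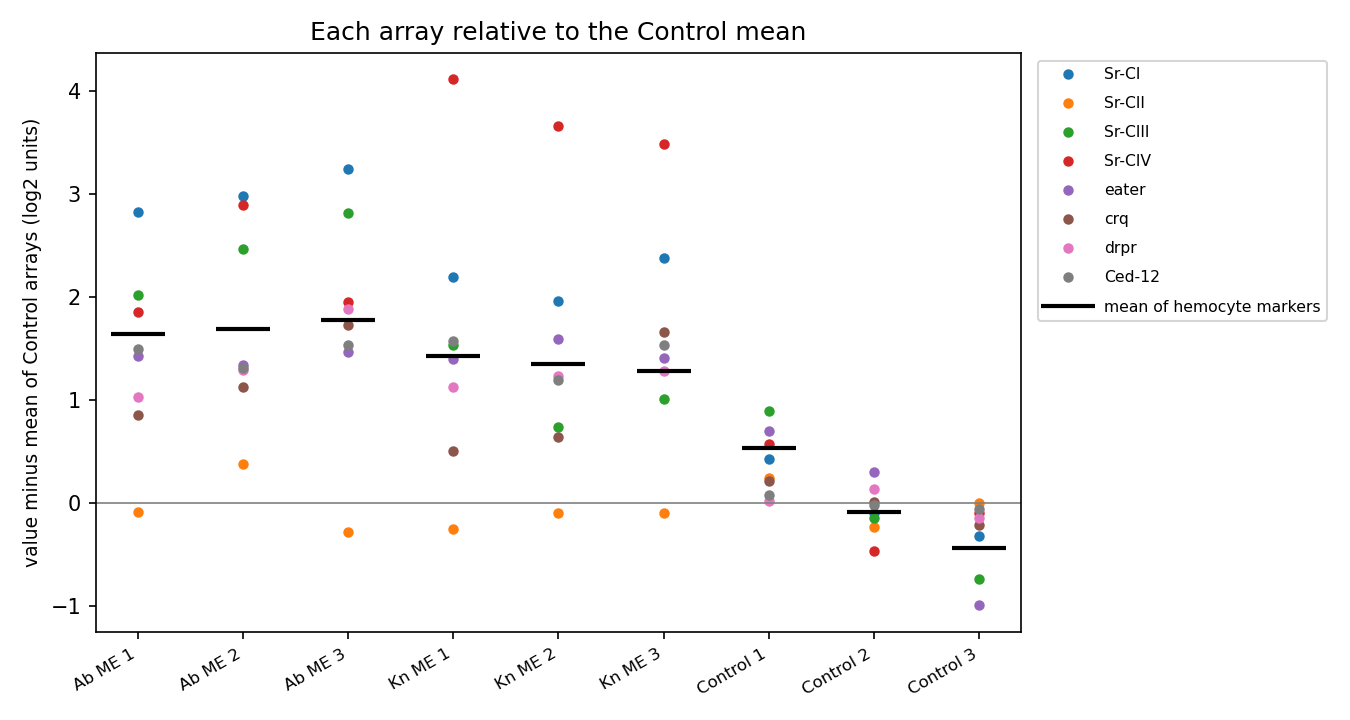
Values of the 8 genes on each array minus the gene's mean over the Control arrays (log2 units), with the same quantity for the average of the 26 hemocyte markers as a black bar. On the Control arrays the bar and most points are highest in replicate 1 and lowest in replicate 3, and on all Kn ME arrays Sr-CIV stands above the other genes.

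Other genes of engulfment rose in part. Of 40 listed genes 25 had a probe set named for them. In Ab ME 10 rose and 2 fell (median 0.74 log2 units), and in Kn ME 5 rose and 0 fell (median 0.63). Among cell-surface genes, NimC1, a plasmatocyte phagocytosis receptor of the Nimrod family that is also a hemocyte marker, rose by 1.88 in Ab ME (adjusted p = 0.0133) and 1.67 in Kn ME (0.0398). NimB4, a secreted Nimrod protein, and Itgbn, a beta integrin subunit of phagocytosis, rose in Ab ME by 2.61 and 1.33 (adjusted p = 0.0306 and 0.0291). The integrin alpha subunit scb and the immunoglobulin receptor Dscam1 fell by 1.44 and 1.89 on the log2 scale in Ab ME (adjusted p = 0.0223 and 0.0273). The other Dscam1 probe set differed by -0.14 and did not pass. NimC4, known as Six-microns-under, which recognises apoptotic cells ahead of Draper, had values of 1.005 to 2.63 over the 9 arrays and a difference of -0.10 in Ab ME.

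Of 5 measured phagosome genes, 3 passed in each group, and Rab14 (0.29 in Ab ME, 0.48 in Kn ME) and Rab35 (0.59 and 1.34) did not. The cathepsin gene CtsB rose by 1.43 in Ab ME (adjusted p = 0.0035) and 1.13 in Kn ME (0.0209), CtsL1 by 1.23 (0.00526) and 0.88 (0.0412), and Lamp1, of the lysosomal membrane, by 0.74 (0.011) and 0.63 (0.0408). Orai, the store-operated calcium channel, rose by 1.68 (0.00142) and 1.61 (0.00514). Its other probe set rose by 2.18 in Ab ME (0.0257), and in Kn ME it differed by 2.04 and did not pass (0.0586). In Ab ME there were also rises of the Draper ligand gene prtp (1.85, adjusted p = 0.0111), the opsonin-like gene Tep4 (1.31, 0.022) and SCAR, an activator of Arp2/3 (1.53, 0.0274). Of the measured signalling genes next to Draper, named after their values were seen, none passed: the adaptor ced-6 differed by 0.75 (adjusted p = 0.0818), the kinase Shark by 1.88 (0.0504) and Crk by -0.11 (0.75) in Ab ME. At an unadjusted p under 0.05, 18 of the 25 differed in Ab ME, against 30.2% of all probe sets, and 13 in Kn ME, against 19.8%. The count of 12 calls in Ab ME became 6 without Ab ME replicate 2 or 3. The 5 calls in Kn ME became 2, 2 and 3 without Ab ME replicates 1, 2 and 3, 1, 1 and 2 without Kn ME replicates 1, 2 and 3, 2 without Control replicate 2 and 8 without Control replicate 1.

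Of 12 measured relatives of crq in the CD36 family, 1 rose and 2 fell in Ab ME, and 1 rose and 1 fell in Kn ME, with medians of 0.02 in both. With 14.0% and 5.29% of all probe sets called, so few calls say nothing particular to the family. Of the 12, 6 lay below 1.54 on every Ab ME array, 4 on every Kn ME array and 5 on every Control array. The medians and counts therefore include many low values. The relative pes, a receptor for uptake of mycobacteria in cultured fly cells, had 6.01, 6.45 and 6.24 log2 units in Ab ME, 5.55, 5.94 and 6.13 in Kn ME, and 3.11, 3.10 and 3.93 in Control. Its log2 difference was 2.85 in Ab ME (SE 0.26, adjusted p = 0.000484) and 2.49 in Kn ME (SE 0.26, adjusted p = 0.00287). The relative emp ran the other way, with 2.23, 2.23 and 2.50 in Ab ME, 3.64, 3.84 and 4.18 in Kn ME, and 5.22, 5.67 and 6.12 in Control. It fell by 3.35 in Ab ME (adjusted p = 0.000201), and by 1.79 in the Kn ME arrays (adjusted p = 0.00707, SE 0.24 for each). It was the 1 CD36 relative called between Kn ME and Ab ME (1.57, adjusted p = 0.0369), a call lost without any single Ab ME or Kn ME array or Control replicate 2. The gene santa-maria, which takes up carotenoids, fell by 1.14 in Ab ME (adjusted p = 0.018), with all Ab ME values below 1.54.

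**Figure D4:**
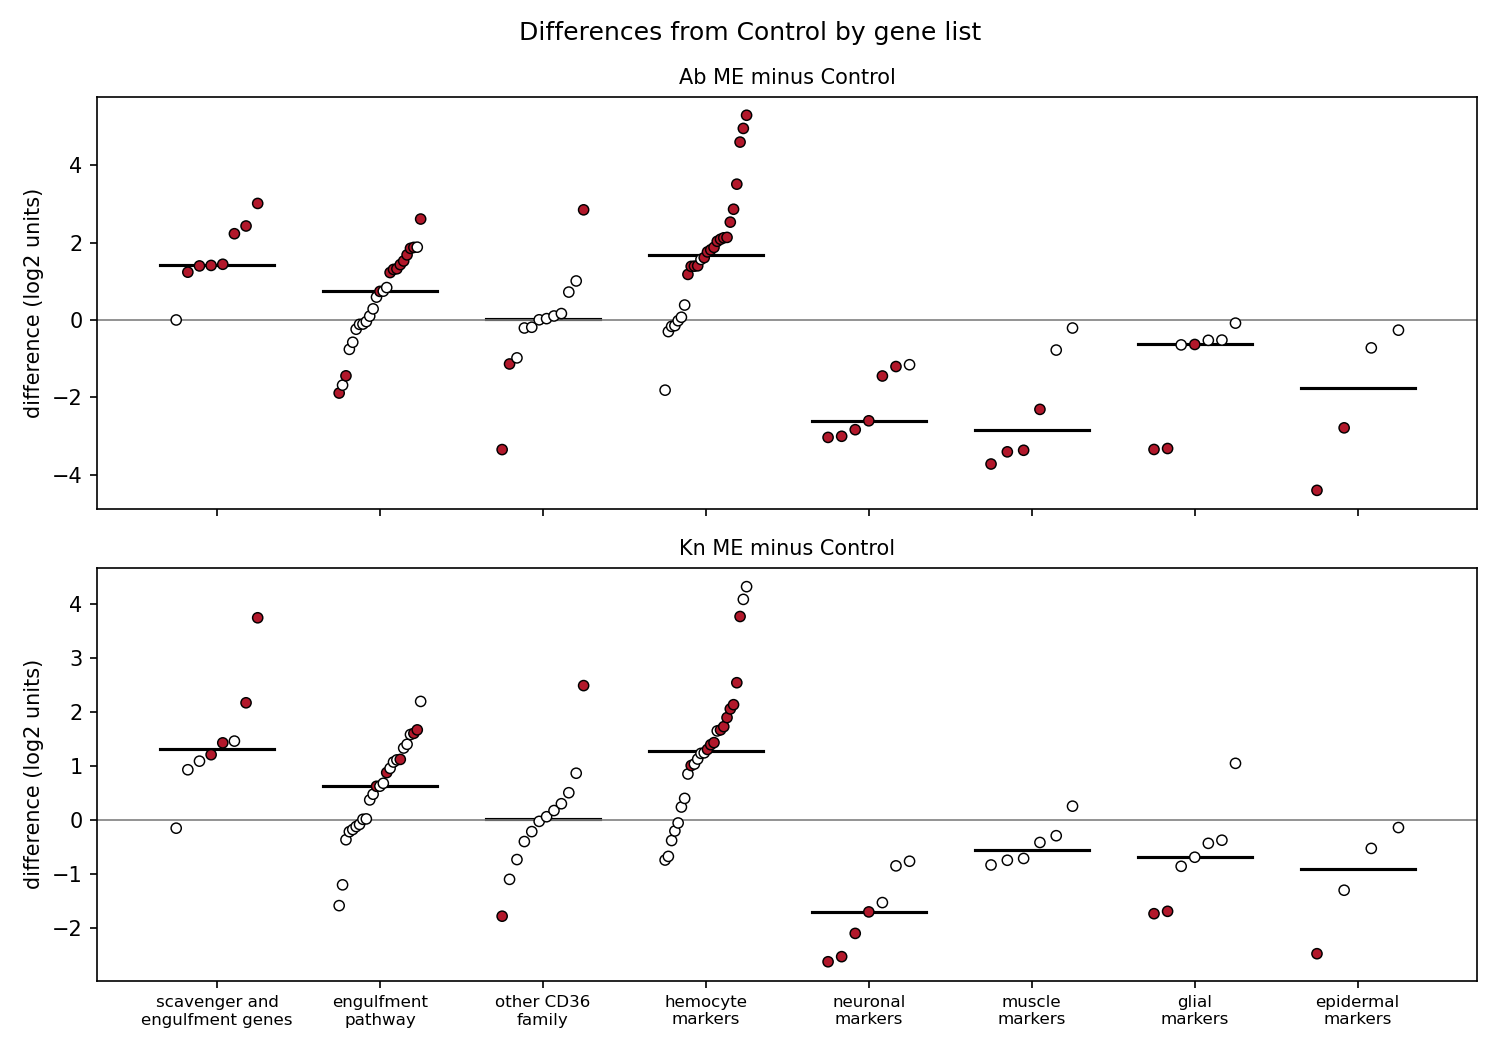
Log2 differences from Control of single genes, by list, for Ab ME (top) and Kn ME (bottom). Each point is a gene, spread out by rank within its list, filled points passed the limma test and bars are list medians. The 8 scavenger and engulfment genes lie in the range of the hemocyte markers (medians 1.43 and 1.69 in Ab ME, 1.32 and 1.28 in Kn ME), while the medians of neuronal, muscle, glial and epidermal markers lie below 0.

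Markers of other cells that use these receptors were lower or did not pass. Over all probe sets 5.25% passed as lower in Ab ME and 1.95% in Kn ME. Of 7 glial markers 3 fell in Ab ME and 2 in Kn ME (medians -0.63 and -0.69). The calls were Inx2 and ogre in both groups and nrv2 in Ab ME. The markers repo, Gli, moody and wrapper did not pass, and Gli differed by 1.05 in Kn ME. The 7 glial markers averaged 3.08 to 3.33 log2 units in Ab ME, 3.39 to 4.19 in Kn ME and 4.26 to 4.77 in Control. The glial factor repo and the marker wrapper lay below 1.54 on every Ab ME and Kn ME array. Their Control values were low too, 2.02, 1.23 and 1.65 for repo and 0.88, 0.70 and 2.21 for wrapper. Neither gene passed in either comparison with Control. Of 4 epidermal markers 2 fell in Ab ME and 1 in Kn ME, with averages of 2.09 to 2.53, 2.83 to 3.64 and 3.96 to 4.92 in Ab ME, Kn ME and Control. These averages include ple, below 1.54 on all 9 arrays, and shg, at 0.55 to 2.09. Glia and epidermis also express drpr, and their part in its values was not tested. Of 6 muscle markers 4 fell in Ab ME and 0 in Kn ME (medians -2.84 and -0.57), and of 3 fat body markers 2 fell in Ab ME and 0 in Kn ME (medians -2.36 and -1.17).

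The named genes most like each risen gene were ranked by Pearson's r over the 9 arrays, among the 11974 named genes outside the 8. The 9 arrays form 3 groups, so r includes differences between groups, and r within groups, after group means were removed, is given beside it as a description. Sr-CI was followed most closely by Ppn, for the matrix protein papilin (r = 0.997, within groups 0.891), Ten-m (0.992, within groups 0.756) and NimB5, a secreted Nimrod gene (0.991, within groups 0.709). Sr-CIII was followed by CG9304 (0.983, within groups 0.967), St3 (0.971, within groups 0.861) and CG12744 (0.969, within groups 0.83), and Sr-CIV by CG8157 (0.971, within groups 0.767), the cytochrome P450 gene Cyp6a23 (0.964, within groups 0.399) and Xe7 (0.963, within groups 0.691). For eater the 3 genes were CG2003 (0.998, within groups 0.994), Dap160 (0.991, within groups 0.988) and TwdlE (0.99, within groups 0.979), and for crq Chd3 (0.965, within groups 0.982), CG12914 (0.96, within groups 0.937) and CG7131 (0.957, within groups 0.934). For drpr they were CG9760 (0.978, within groups 0.917), CG32040 (0.971, within groups 0.736) and CG10512 (0.967, within groups 0.686), and for Ced-12 NdufV3 (0.976, within groups 0.595), CG30269 (0.974, within groups 0.544) and CG1161 (0.974, within groups 0.456). No gene was named for more than 1 of the 8.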

How the data were processed

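The deposited log2 values were made by the authors with RMA, per the submitters' processing notes, a method that subtracts background, equalises arrays and combines probes into sets. The RMA version, the set of arrays it was run on and the log base are not given in the sources used here. The range of the values points to base 2. Scanner output, detection calls and scan dates were not used here, so no batch was examined. With 3 arrays a group, the number of arrays sets the precision. Of 18952 probe sets, 183 controls were left out and 18769 tested. Symbols came from the platform annotation (13647 probe sets with 1 symbol, 402 with several, 4720 with none), updated to current names with RefSeq genes (Release 6 plus ISO1 MT); where a gene had several sets, the one with the highest mean stood for it. Identical arrays were looked for, and 0 pairs were found.

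Using limma 3.58.1 (R 4.3.3), a linear model was fitted with a term per group over all 9 arrays (6 residual and 2.44 prior degrees of freedom), 2-sided moderated tests and Benjamini-Hochberg adjustment over all 18769 probe sets at 0.05. Intervals are 95% model intervals, not adjusted for the number of tests. The procedure was also run on simulated data with independent noise per probe set and shifts put into Ab ME only. That setting holds no shifts shared between genes, and no result is drawn from it here. The 8 genes, the lists and the rule for named genes were chosen with earlier results of these data known. The rule took all 8 genes with every probe set, list genes past the threshold in any comparison (up to 12 a list), and the 3 named genes most like each risen member. The engulfment genes NimC4, Rab14, Rab35, ced-6, Shark and Crk passed in no comparison and were named outside this rule. Alternatives changed the normalization, centring, prior, arrays fitted, filter on dim probe sets, probe set summary, replicate block and array weights, and left out each array in turn.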

Additional observations from a re-analysis of the deposited data

How the results depend on the processing

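Of 405 values of single genes of the 8 recomputed under 17 alternatives, 365 kept their direction and their side of the threshold, 23 lost a call, 6 gained 1 and 11 changed sign. None of the differences that changed sign had passed the threshold. For Sr-CII in Ab ME the sign turned with array weights (-0.0064), and with single arrays left out the values ran from -0.19 to 0.15. Between Kn ME and Ab ME the range was -0.297 to 0.0353 for Sr-CII, -0.372 to 0.0547 for drpr, -0.0117 to 0.0873 for eater and -0.0785 to 0.111 for Ced-12, with eater at -0.0090 after centring and Ced-12 at 0.0805 after quantile normalization. Beyond the losses by array given above, the Ab ME calls of eater and crq were lost after quantile normalization (adjusted p = 0.0916 and 0.13), that of eater with only the 6 arrays compared (0.1), and that of crq and the Kn ME call of drpr with array weights (0.104 and 0.0649). In Kn ME eater passed after centring (0.0468), with the trend and robust prior (0.0296) and without dim probe sets (0.0375). The cause was not tested.

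The count of 7 of the 8 genes in Ab ME ran from 5 to 6 with single arrays left out, and that of 4 in Kn ME from 3 to 6. With only the 6 arrays compared, the engulfment list had 7 calls in place of 12 and all probe sets 1726 in place of 2622 in Ab ME. In Kn ME the engulfment list had 1 in place of 5, the hemocyte markers 6 in place of 11 and all probe sets 337 in place of 992. Between Kn ME and Ab ME the hemocyte markers had 1 in place of 0 and all probe sets 241 in place of 97. Engulfment calls in Kn ME were 2 after quantile normalization and 3 with array weights. With array weights, all calls were 589 in Kn ME and 326 between Kn ME and Ab ME, where 1 hemocyte marker passed, and 149 without dim probe sets. The emp call between Kn ME and Ab ME was lost (0) with the trend and robust prior. Leaving out single arrays gave 6 to 13 engulfment calls and 1400 to 3249 calls in all for Ab ME, 1 to 8, 6 to 18 hemocyte markers and 347 to 1609 for Kn ME, and 0 to 1 CD36 relatives and 26 to 139 calls between Kn ME and Ab ME.

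After centring, the median over all probe sets shifted by 0.17 in Ab ME and by 0.11 in Kn ME. Higher calls made up 51.5% of those between Kn ME and Ab ME as deposited, 63.1% with the trend and robust prior, 62% when quantile normalized, 62.4% without dim probe sets and 68.1% with the replicate block. The directions of the 7 genes called in Ab ME and the 4 called in Kn ME stayed the same under centring and quantile normalization. Replicate numbers are shared between groups. Deviations of arrays with the same number correlated at 0.0343 to 0.272, all above 0, and 13 of 18 comparisons were highest for the own number, a hint of pairing from the data and not from the design. The numbers were not taken as pairs in the main model, since the labels do not name pairs, and pairing was not settled. With the replicate block 7 and 4 of the 8 genes passed as before, and the engulfment calls in Kn ME became 3.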

Other observations

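Within 3 protein-coding genes on each side, in the order of the Release 6 assembly, 37 other genes were measured, of which 3 rose and 2 fell in Ab ME and 2 rose and 1 fell in Kn ME. Over all probe sets 14.0% and 5.29% passed, so the count in Ab ME is close to that share and the 3 calls in Kn ME are too few to set apart from it. The 37 genes were chosen by position. Named below are genes next to Sr-CIII, Sr-CI, Sr-CIV and crq, and the genes called in both groups. Between Sr-CIII and Sr-CI lie 0 protein-coding genes, while Sr-CIV lies 60 genes from Sr-CI on the same arm. Next to that pair, ed, a cell adhesion gene, differed by 0.35 in Ab ME (limma adjusted p = 0.294) and CG2955 by 0.002 (adjusted p = 0.995), so the flanking genes were not called while both receptors were. Over the 9 arrays with group means removed, Sr-CI and Sr-CIII varied together at r = 0.891 and Sr-CI and Sr-CIV at 0.342, given as a description. Beside Sr-CIV, CG8851 (-0.14) and CG8852 (-0.25) did not pass in Ab ME. The neighbour of drpr, CG18171, rose in both groups (1.66, adjusted p = 0.0204, in Ab ME and 1.57, adjusted p = 0.0463, in Kn ME). Near crq, CG4133 fell in both (-1.38, adjusted p = 0.00936, and -1.46, adjusted p = 0.0166), opposite in direction to crq. The genes directly beside crq, ex (0.90 in Ab ME, 0.40 in Kn ME) and shv (1.17 and 0.57), differed in the direction of crq and did not pass.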
